A study of Mus musculus with 14 samples.

Results

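Transcripts of 10 C-type lectin receptors were followed in primary bone marrow-derived macrophages (pBMDMs): Clec4n, Clec4d, Clec4e, Clec7a, Clec4a1, Clec4a2, Clec4a3, Clec5a, Clec12a and Clec10a. The genes were taken by name from the 55414 genes of the deposited table, and all 10 were found. All 10 also passed the filter on low counts that left 12851 genes for testing. The pBMDMs, labelled wildtype and grown with M-CSF, spent 24 h in filtered supernatant of Pfa1 cells, a line of mouse embryonic fibroblasts (MEFs) that loses GPX4 and dies by ferroptosis, a necrosis driven by lipid peroxidation, when 4-hydroxytamoxifen (4OHT) is added. The supernatants came from MEFs without additions (ctrl), with 4OHT (4OHT), with 4OHT and the ferroptosis inhibitor Ferrostatin-1 (4OHT+Fer1) or with Ferrostatin-1 alone (Fer1), in 3 replicates each, and fresh medium without contact to MEFs was given in 2 replicates (medium). The compounds stay in the supernatant, so that pBMDMs of the 4OHT group met 4OHT itself as well as the products of dying cells, and the comparison with ctrl alone cannot tell them apart. The 4OHT+Fer1 group shares the 4OHT but not the cell death, and its pBMDMs met Ferrostatin-1 as well. The comparison of 4OHT with 4OHT+Fer1 alone thus cannot tell the cell death from Ferrostatin-1 itself. Each value comes from a bulk culture, in which fewer cells that use a gene and less RNA per cell cannot be told apart.

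C-type lectin receptors are surface proteins by which myeloid cells bind sugars, lipids and other products of microbes and of dead cells. Dectin-2 (Clec4n), Mincle (Clec4e) and Mcl (Clec4d) signal through the adaptor FcRγ, Dectin-1 (Clec7a) through a tyrosine motif of its own tail, and Mdl1 (Clec5a) through DAP12, and from there the kinase Syk and the adaptor Card9 lead to cytokine genes. Clec4a2 (Dcir1) and Clec12a (Micl) carry inhibitory motifs that recruit phosphatases, Clec4a1 and Clec4a3 (Dcir4 and Dcir3) are relatives of Clec4a2, and Clec10a (Mgl1) is an endocytic receptor for galactose-type sugars.

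In the GENCODE M21 annotation of the mouse build GRCm38, 9 of the 10 genes lie on chromosome 6 and Clec10a lies on chromosome 11 (chr11:70156197-70170834, plus strand). A cluster of 9 protein-coding genes over 368 kb holds 6 of them in the order Clec4a1 (chr6:122921848-122934619), Clec4a3 (chr6:122952515-122969875), Clec4a2 (chr6:123106428-123143999), Clec4n (chr6:123229843-123247021), Clec4d (chr6:123262111-123275265) and Clec4e (chr6:123281789-123289870), the last on the minus strand and the others on the plus strand. The other genes of the cluster, Clec4a4, Clec4b1 and Clec4b2, stand between Clec4a3 and Clec4n. Clec12a (chr6:129342691-129365303, plus strand) and Clec7a (chr6:129461591-129472779, minus strand) lie 96.3 kb apart in a second cluster, and Clec5a (chr6:40574894-40585821, minus strand) stands on its own. Clec4a2 overlaps a processed pseudogene on the same strand, Gm44132, and its estimated counts were not whole numbers in most samples. Whether its reads were shared out with another gene was not tested, so that its level may be less certain than the others. Some counts of Clec4e, Clec4a3, Clec12a and Clec10a were not whole either. No other member overlaps a gene in this annotation, which types Clec7a as a polymorphic pseudogene where RefSeq has a protein-coding gene, overlapped there by the non-coding RNA gene Gm45969.

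The bases just upstream of the transcription start are shown for Clec7a, Clec4a1 and Clec4a3, which were higher after ferroptotic supernatant, and for Clec5a, which went the other way against fresh medium. They were taken from the RefSeq promoter table (GRCm38.p6), which had entries for 8 of the 10 genes, with none for Clec4n and Clec10a. Each run is the 150 bases before the start, 5′ to 3′, and capitals mark GAGGAA on either strand (TTCCTC in the printed direction), the core read by PU.1, the ETS factor of the macrophage lineage.

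Clec7a (chr6:129472786-129472935, minus strand): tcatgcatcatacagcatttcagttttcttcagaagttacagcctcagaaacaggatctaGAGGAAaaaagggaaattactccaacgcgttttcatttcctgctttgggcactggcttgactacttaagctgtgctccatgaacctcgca

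Clec4a1 (chr6:122921698-122921847, plus strand): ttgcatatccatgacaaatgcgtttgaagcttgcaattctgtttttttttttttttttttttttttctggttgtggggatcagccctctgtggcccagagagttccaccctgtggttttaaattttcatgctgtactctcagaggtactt

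Clec4a3 (chr6:122952365-122952514, plus strand): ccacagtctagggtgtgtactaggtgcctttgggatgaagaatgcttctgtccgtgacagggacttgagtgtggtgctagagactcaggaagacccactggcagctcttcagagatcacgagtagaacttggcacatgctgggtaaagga

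Clec5a (chr6:40585806-40585955, minus strand): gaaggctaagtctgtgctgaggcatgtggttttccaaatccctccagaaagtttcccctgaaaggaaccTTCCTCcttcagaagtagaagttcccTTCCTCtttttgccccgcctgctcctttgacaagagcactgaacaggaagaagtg

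GAGGAA was found upstream of 6 of the 10 starts listed for these genes, Clec4e, Clec5a, Clec7a, Clec12a and a downstream start of Clec4a3 among them, and in 14.5% of the windows of this length in all 32851 promoters. The 2 starts of Clec7a are 6 bases apart and share their match. TTNNGNAA, a C/EBP-type sequence searched on both strands, was found upstream of 4 starts (22.7% of all windows), 3 times at Clec4d, and TGANTCA, the AP-1 sequence, was found at 0 of the 10 starts (4.24% of all windows). The motifs were searched one by one and may overlap. A match describes letters only and does not show binding.

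Libraries were made with QuantSeq, which reads the 3′ end of each transcript, so that CPM, the counts scaled to library size with TMM factors, count transcripts without a correction for gene length and can be set beside each other between genes. Clec4d, which pairs with Clec4e and binds mycobacterial glycolipid, was the most abundant of the 10 in ctrl, with 595 ± 90.8 CPM (SD, n = 3), and its 3 ctrl samples lay above every ctrl sample of the other members. Clec12a (235 ± 56.5), Clec4a2 (161 ± 109), Clec7a (148 ± 73.2) and Clec4a1 (129 ± 27.5 CPM, SD, n = 3 each) followed, with overlapping ranges except for Clec12a and Clec4a1, whose ctrl samples did not overlap. Clec5a (78.8 ± 7.59), Clec4n (51.8 ± 46.0), Clec4e (47.6 ± 4.38), Clec10a (45.3 ± 2.27) and Clec4a3 (44.4 ± 13.2 CPM, SD, n = 3 each) formed the lower end, where the range of Clec4n, from 15.0 to 103 CPM, covered those of the other 4. Summed over the 10 genes, the level was 1330.0 to 1893 CPM in ctrl, 2245 to 2766 CPM in 4OHT, 1387 to 2014 CPM in 4OHT+Fer1, 1395 to 1839 CPM in Fer1 and 2892 to 2904 CPM in medium. Every 4OHT sample thus held more transcripts of these receptors than every sample of the other supernatants, and both medium samples held more still. Clec4d made up 44.6% of the sum in 1 Fer1 sample and 17.6% in 1 medium sample, the ends of its range.

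**Figure D1:**
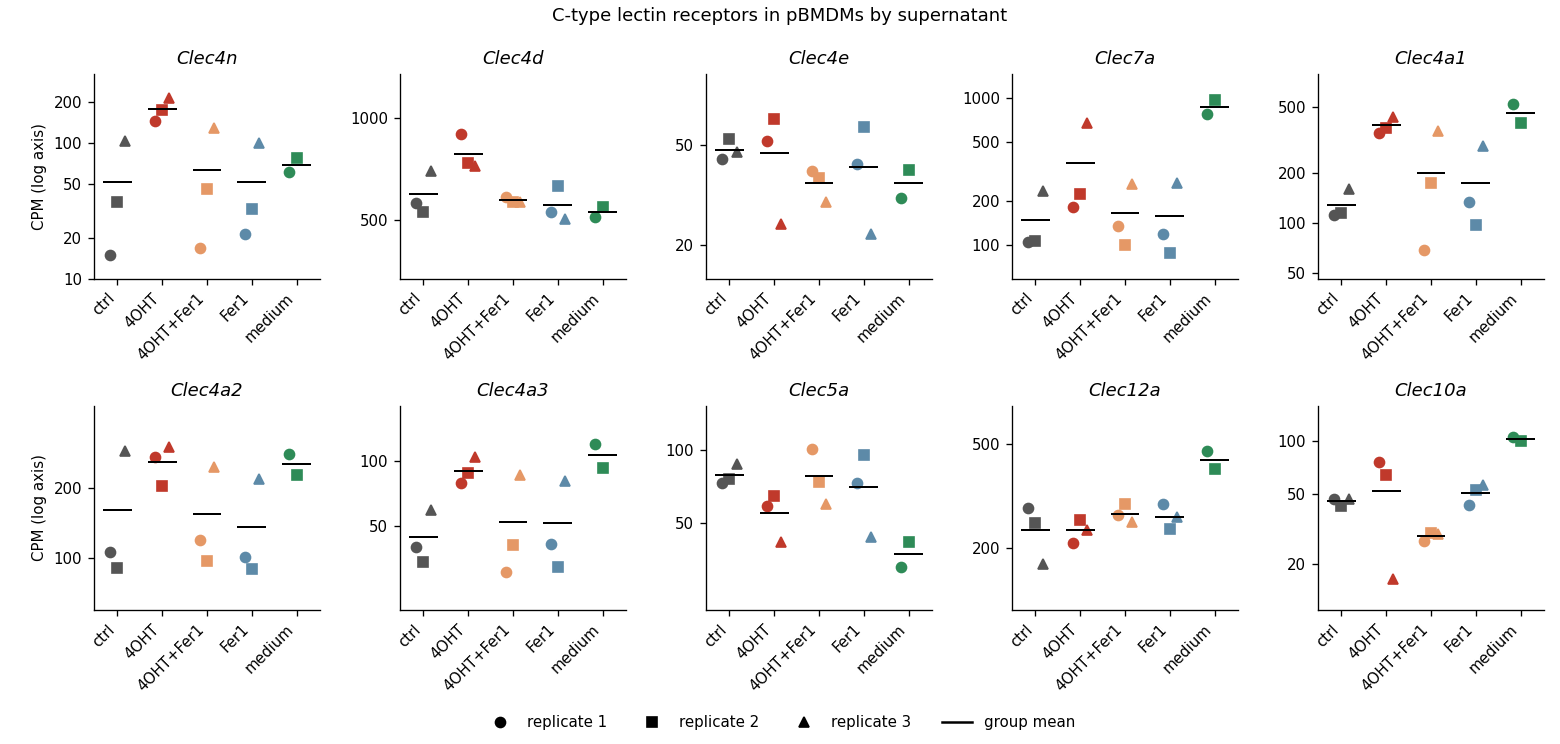
CPM (log axis) of the 10 receptor genes in each of the 14 samples by group, with the replicate number as the symbol and the group mean as a bar. Clec4n, Clec7a, Clec4a1, Clec4a2 and Clec4a3 share a shape, with the 4OHT and medium samples mostly above the other groups. In these genes replicate 3 lies above replicates 1 and 2 in ctrl, 4OHT+Fer1 and Fer1. For Clec5a the 4OHT and medium samples lie mostly below the other groups.

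The comparison of 4OHT with ctrl asked what ferroptotic supernatant did to these genes. Clec4n, Clec4a1, Clec7a and Clec4a3 were higher after ferroptotic supernatant, by 2.10 to 4.82 times, and Clec4d, Clec4e, Clec5a, Clec12a, Clec10a and Clec4a2 were not called. Calls required a log2 fold change beyond 1 in either direction together with an adjusted p under 0.05, where p came from the quasi-likelihood test of edgeR and was adjusted after Benjamini and Hochberg over all 12851 genes (edgeR adjusted p). The fit held all 14 samples and the replicate number as a block. Of the 10 members 4 were called, all of them higher, against 1.11% of all genes tested (143 genes) and 0.35% called higher (45 genes). The median log2 fold change was 0.64 over the members and 0.01 over all genes. The 10 genes were chosen with earlier results of these data known, so that such contrasts with all genes, here and below, are descriptions only. Every 4OHT sample lay above every ctrl sample for 4 members (5.2% of all genes), Clec4n, Clec4d, Clec4a1 and Clec4a3, and below for 1 member (5.84% of all genes), Clec5a. For each of these 5 the exact two-sided permutation test gave p = 0.1, the smallest value that 3 samples against 3 allow.

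Among the activating receptors, Clec4n, the Dectin-2 gene whose product binds mannan-rich structures, moved most. Clec4n stood at 15.0, 37.1 and 103 CPM in ctrl replicates 1, 2 and 3 and at 145, 176 and 213 CPM in the 4OHT replicates. The groups did not overlap, although ctrl replicate 3 came closer to the 4OHT samples than the other ctrl samples did. The log2 fold change was 2.27 (SE 0.36, 95% interval 1.48 to 3.05, edgeR adjusted p = 0.0128), and 4OHT exceeded ctrl by 3.26, 2.24 and 1.05 in log2 CPM when samples of the same replicate number were set against each other.

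Clec7a, the beta-glucan receptor Dectin-1, had 105, 106 and 233 CPM in ctrl and 182, 222 and 675 CPM in 4OHT. The ctrl sample of replicate 3 lay above the 4OHT samples of replicates 1 and 2, so that the groups overlapped, but 4OHT exceeded ctrl within each replicate number, by 0.79, 1.06 and 1.54 in log2 CPM. Its log2 fold change was 1.14 (SE 0.19, 95% interval 0.73 to 1.56, edgeR adjusted p = 0.0153).

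Clec4d and Clec4e, neighbours 6.5 kb apart whose products form a complex, were not called, although Clec4n lies 15.1 kb from Clec4d; whether the genes differ from each other was not tested. Clec4d had 560, 527 and 698 CPM in ctrl and 899, 734 and 723 CPM in 4OHT. The 4OHT samples lay above the ctrl samples, the smallest gap being between 698 and 723 CPM. Its log2 fold change of 0.40 (SE 0.16, edgeR adjusted p = 0.360) did not pass. Clec4e, the receptor for the nuclear protein SAP130 of dead cells as well as for cord factor, had 43.8, 52.4 and 46.7 CPM in ctrl and 51.6, 63.0 and 24.3 CPM in 4OHT. Replicates 1 and 2 were slightly higher and replicate 3 lower in 4OHT, and the log2 fold change was -0.14 (95% interval -0.67 to 0.38, edgeR adjusted p = 0.90). Clec5a, the DAP12-coupled receptor, had 72.9, 76.0 and 87.3 CPM in ctrl and 59.0, 64.6 and 41.6 CPM in 4OHT, lower in each replicate number. This log2 fold change of -0.57 (SE 0.23, edgeR adjusted p = 0.373) did not pass.

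In the Dcir group, Clec4a1 had 111, 115 and 160 CPM in ctrl and 346, 374 and 435 CPM in 4OHT. These groups were widely apart, and the difference was of like size in each replicate number, at 1.64, 1.70 and 1.44 in log2 CPM. The log2 fold change of Clec4a1 was 1.61 (SE 0.34, 95% interval 0.88 to 2.35, edgeR adjusted p = 0.0388). Clec4a3 had 40.0, 34.0 and 59.2 CPM in ctrl and 78.7, 87.7 and 104 CPM in 4OHT, again without overlap, and its log2 fold change was 1.07 (SE 0.22, edgeR adjusted p = 0.0335). Clec4a2, the inhibitory member that gave the family its name, had 106, 91.1 and 286 CPM in ctrl and 271, 204 and 300 CPM in 4OHT. In replicates 1 and 2 it differed by 1.36 and 1.16 in log2 CPM and in replicate 3 by 0.07. Its log2 fold change of 0.88 (SE 0.21, edgeR adjusted p = 0.0579) passed neither threshold. It was called without ctrl replicate 3 (log2 fold change 1.09, edgeR adjusted p = 0.0228) and without 4OHT replicate 3 (log2 fold change 1.18, edgeR adjusted p = 0.00450).

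The other inhibitory receptor and the endocytic receptor showed no common direction. Clec12a, which binds uric acid crystals, had 283, 248 and 173 CPM in ctrl and 209, 256 and 234 CPM in 4OHT, with a log2 fold change of 0.01 (95% interval -0.36 to 0.38, edgeR adjusted p = 0.992). Clec10a had 46.8, 42.7 and 46.5 CPM in ctrl and 76.1, 63.6 and 16.3 CPM in 4OHT. The 4OHT sample of replicate 3 was 4.21 times lower than the mean of the other 4OHT samples, taken over log2 CPM. By the same measure replicate 3 differed from replicates 1 and 2 by at most 1.18 times in ctrl, 4OHT+Fer1 and Fer1. The log2 fold change was 0.13 (95% interval -0.68 to 0.94, edgeR adjusted p = 0.947) with that library and 0.66 without it (edgeR adjusted p = 0.0588).

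The 4 calls depended on the block and on the number of libraries. Without the replicate number in the model 0 of the 10 members were called, and the same held for a fit of these 6 libraries alone. It was the adjusted p that no longer passed, since the log2 fold changes of Clec4n, Clec7a, Clec4a1 and Clec4a3 were 1.78, 1.28, 1.58 and 1.02 without the block (edgeR adjusted p of 0.322 to 0.675) and 2.17, 1.13, 1.59 and 1.05 in the fit of the 6 libraries (edgeR adjusted p of 0.142 to 0.271). With single libraries left out in turn, Clec4n was called in 2 of 6 fits, Clec7a in 2, Clec4a1 in 1 and Clec4a3 in 1, while the log2 fold changes stayed between 1.84 and 2.73, 0.96 and 1.32, 1.45 and 1.86, and 0.87 and 1.29. The libraries whose loss ended the call were ctrl replicates 1 and 2 and 4OHT replicate 2 for all 4 genes, 4OHT replicate 1 for Clec4n, Clec4a1 and Clec4a3, 4OHT replicate 3 for Clec7a, and ctrl replicate 3 for Clec4a1 and Clec4a3.

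**Figure D2:**
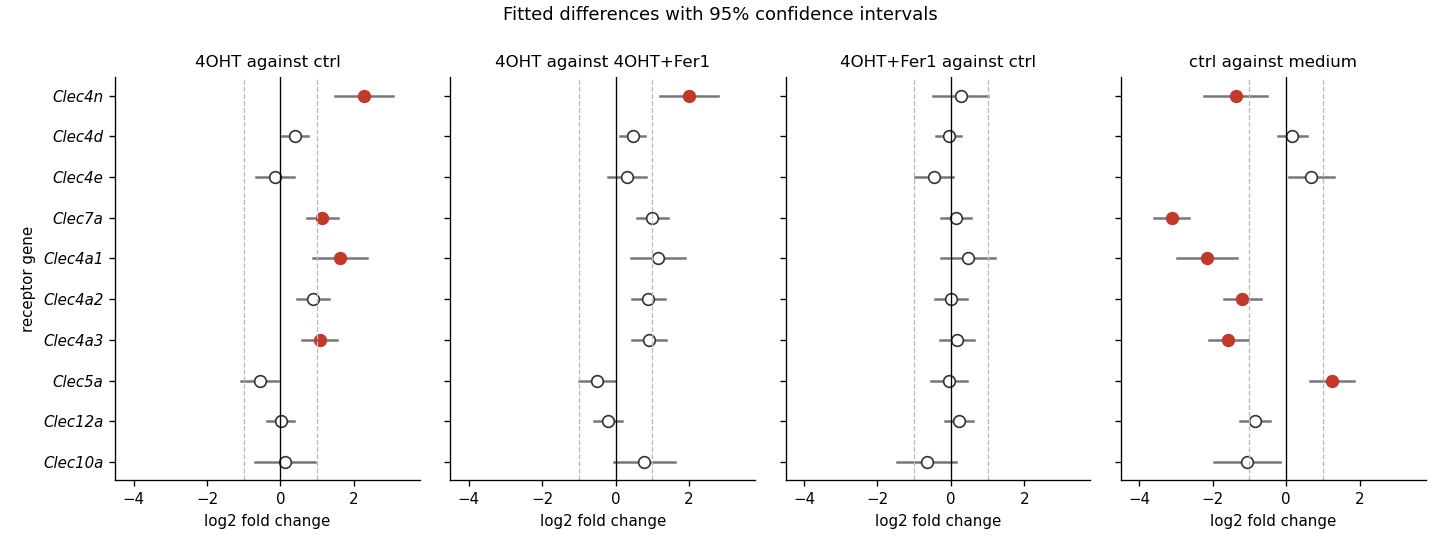
Fitted log2 fold changes (points) with 95% confidence intervals (lines) of the 10 genes in 4 comparisons, where filled points were called and dashed lines mark a log2 fold change of 1 in either direction. The 4 called genes of 4OHT against ctrl, Clec4n, Clec7a, Clec4a1 and Clec4a3, lie on the opposite side of 0 in ctrl against medium, and all 10 intervals of 4OHT+Fer1 against ctrl include 0.

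Ferrostatin-1 was added to MEFs together with 4OHT to ask whether the effect needed ferroptosis, and it reached the pBMDMs with the supernatant as well. With it, Clec4n stood at 16.7, 45.7 and 128 CPM in 4OHT+Fer1 replicates 1, 2 and 3 and at 21.4, 32.9 and 100.1 CPM in Fer1. Both groups overlapped ctrl, and each of their samples lay below every 4OHT sample. Against 4OHT+Fer1, the 4OHT samples had a log2 fold change of 2.00 for Clec4n (SE 0.36, 95% interval 1.22 to 2.78, edgeR adjusted p = 0.0244). Clec4n was the 1 member called there, where 1.03% of all genes were called (132 genes) and 0.296% were called higher (38 genes). Clec7a missed the fold threshold by a small margin (log2 fold change 0.998, edgeR adjusted p = 0.0302).

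The other genes of this shape were also lower in 4OHT+Fer1 than in 4OHT, without passing both thresholds. Clec7a had 134, 99.5 and 261 CPM, Clec4a3 had 30.7, 40.8 and 85.8 CPM and Clec4a2 had 120, 96.8 and 245 CPM there, each below the 4OHT sample of the same replicate number. Clec4a1 differed most between replicates, with 69.2, 173 and 358 CPM in 4OHT+Fer1, and its 4OHT samples exceeded these by 2.32, 1.11 and 0.28 in log2 CPM. The log2 fold changes of 4OHT against 4OHT+Fer1 were 1.15 for Clec4a1 (edgeR adjusted p = 0.158), 0.91 for Clec4a3 (edgeR adjusted p = 0.0716) and 0.89 for Clec4a2 (edgeR adjusted p = 0.0595). Clec4d, at 583, 563 and 565 CPM in 4OHT+Fer1, lay below every 4OHT sample, with a log2 fold change of 0.46 (edgeR adjusted p = 0.235). Clec5a was lower in 4OHT than in 4OHT+Fer1 within each replicate number, by 0.77, 0.20 and 0.52 in log2 CPM (log2 fold change -0.51, edgeR adjusted p = 0.402). The call of Clec4n was lost without any single one of 5 of the 6 libraries, all but 4OHT replicate 3, with log2 fold changes of 1.57 to 2.46. Without 4OHT replicate 3, Clec4a2, Clec4a3 and Clec10a were called as well, with log2 fold changes of 1.17, 1.13 and 1.32.

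Where Ferrostatin-1 was present, 4OHT made no called difference to any member. The 4OHT+Fer1 and ctrl samples differed for 0 of the 10 members (0.0311% of all genes, 0 members at an unadjusted p under 0.05), 4OHT+Fer1 and Fer1 for 0 (0.0233% of all genes, 1 member at an unadjusted p under 0.05), and Fer1 and ctrl for 0 (0% of all genes, 0 members at an unadjusted p under 0.05) by edgeR, and DESeq2 also called 0 members in each. The 95% intervals of 4OHT+Fer1 against ctrl ran from -0.48 to 1.02 for Clec4n and from -0.27 to 1.19 for Clec4a1, so that a difference as large as the fold threshold lies inside both. Clec10a had the most negative log2 fold change of the 10 members in 4OHT+Fer1 against ctrl and against Fer1. It had 26.8, 29.8 and 29.6 CPM in 4OHT+Fer1 and 43.0, 52.7 and 56.0 CPM in Fer1, and the groups did not overlap. Its log2 fold change was -0.82 against Fer1 (95% interval -1.63 to -0.02, edgeR adjusted p = 1.00) and -0.66 against ctrl (edgeR adjusted p = 0.948), and neither was called.

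The interaction term tested directly whether 4OHT changed a gene more without Ferrostatin-1 than with it. It was 2.06 for Clec4n (SE 0.50, 95% interval 0.98 to 3.14, edgeR adjusted p = 0.286), 1.46 for Clec4a1 (edgeR adjusted p = 0.519), 1.06 for Clec4a3 (edgeR adjusted p = 0.410) and 1.04 for Clec7a (edgeR adjusted p = 0.309). Of the 10 members 0 were called, where 0.0311% of all genes were, and 6 had an unadjusted p under 0.05, as did 797 of the 12851 genes. DESeq2 called 1 member, Clec4n, with an adjusted p of 0.0105.

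**Figure D3:**
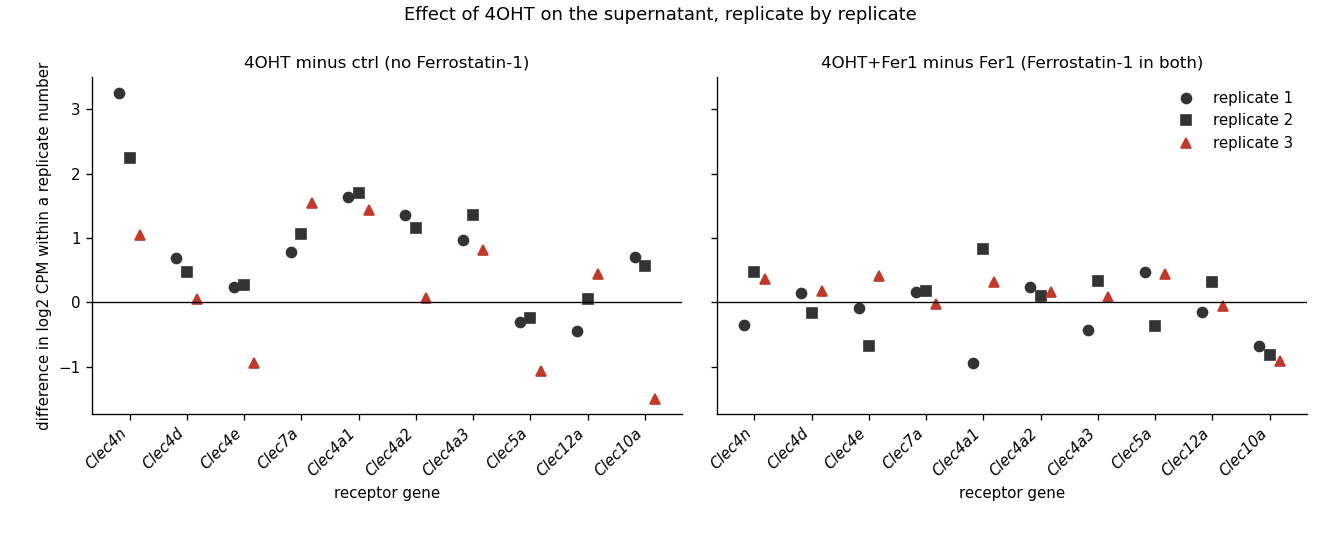
Differences in log2 CPM within replicate numbers, 4OHT minus ctrl in the left panel and 4OHT+Fer1 minus Fer1 in the right panel, for each of the 10 genes, with replicate 3 in red. All 3 differences of Clec4n, Clec4d, Clec7a, Clec4a1, Clec4a2 and Clec4a3 are above 0 on the left, from 0.05 to 3.26, while on the right they lie between -0.95 and 0.83 and only those of Clec4a2 are all above 0.

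Replicate 3 stood apart for several members, in a way shared by groups. Replicate 3 was set against the mean of replicates 1 and 2, taken over log2 CPM. Clec4n in replicate 3 was 4.35 times this mean in ctrl, 4.62 times in 4OHT+Fer1 and 3.75 times in Fer1, but 1.34 times in 4OHT. Clec4a2 showed the same, with 2.91, 2.28 and 2.29 times against 1.27 times in 4OHT. Clec7a was higher in replicate 3 of all 4 supernatant groups, by 2.19 to 3.36 times. For Clec4n and Clec4a2 the difference of 4OHT from ctrl was thus smallest in the replicate whose ctrl sample was high. The same ctrl value enters both, so that the 2 are not independent. Ccr2, the chemokine receptor of inflammatory monocytes, was lowest in replicate 3 of each supernatant group, with 164 CPM in ctrl, 23.0 CPM in 4OHT, 74.7 CPM in 4OHT+Fer1 and 111 CPM in Fer1. The summed level of 6 monocyte markers, Ccr2 among them, was 63.3 CPM in 4OHT replicate 3, the lowest of all, while Vcan of the same list was higher there (18.1 CPM) than in any ctrl sample. The part of these markers in the values of Clec10a and Clec4e there was not tested.

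Fresh medium was compared with ctrl to ask what supernatant of healthy MEFs did. The paper gives DMEM for Pfa1 cells and RPMI for pBMDMs, and does not say which of them the fresh medium was. Comparisons with medium thus cannot tell products of MEFs from a difference in base medium or from nutrients used up by MEFs. Clec7a, Clec4a1, Clec4a3, Clec4n and Clec4a2 were lower in ctrl than in medium and Clec5a was higher. Of the 10 members 6 were called, where 7.79% of all genes were called (1001 genes). The members called lower numbered 5 (3.69% of all genes) and those called higher 1 (4.1% of all genes).

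Clec7a showed the widest difference, with 776 and 968 CPM in medium against 105 to 233 CPM in ctrl. Medium was the group with most Clec7a, above every supernatant sample, and the log2 fold change of ctrl against medium was -3.11 (SE 0.22, 95% interval -3.59 to -2.64, edgeR adjusted p = 1.3e-05). The 4OHT samples of Clec7a also lay below both medium samples, with a log2 fold change of -1.97 (SE 0.22, edgeR adjusted p = 0.00106). Clec7a was the 1 member called there, where 3.07% of all genes were called (394 genes) and 1.64% called lower. Both calls of Clec7a against medium held with any single library left out, with log2 fold changes of -3.33 to -2.84 and of -2.19 to -1.70. The call of 4OHT against medium was lost without all libraries of replicate 1 (log2 fold change -2.03, edgeR adjusted p = 0.0889) or of replicate 2 (log2 fold change -1.74, edgeR adjusted p = 0.279), and without the replicate block (log2 fold change -1.28, edgeR adjusted p = 0.461).

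The Dcir genes in medium overlapped in range with the 4OHT samples. Clec4a1 had 520 and 398 CPM in medium, against 111 to 160 CPM in ctrl and 346 to 435 CPM in 4OHT, and its log2 fold change in ctrl against medium was -2.16 (SE 0.37, edgeR adjusted p = 0.00267). Clec4a3 had 120 and 92.9 CPM in medium (log2 fold change of ctrl against medium -1.58, SE 0.24, edgeR adjusted p = 0.00130). Clec4a2 had 278 and 228 CPM (log2 fold change -1.19, SE 0.23, edgeR adjusted p = 0.00569), where ctrl replicate 3 exceeded both with 286 CPM. Clec4n, at 61.6 and 77.2 CPM in medium, lay inside the range of ctrl, and its call against ctrl (log2 fold change -1.37, SE 0.40, edgeR adjusted p = 0.0447) rested on the block, since the log2 fold change was -0.42 (edgeR adjusted p = 0.872) without it. All 4OHT samples of Clec4n lay above both medium samples, with a log2 fold change of 0.90 (edgeR adjusted p = 0.285).

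Clec5a had 33.0 and 41.8 CPM in medium, the latter just above the 41.6 CPM of 4OHT replicate 3, and was higher in ctrl by a log2 fold change of 1.25 (SE 0.28, 95% interval 0.65 to 1.85, edgeR adjusted p = 0.0120). Clec12a (470 and 402 CPM) and Clec10a (106 and 100.3 CPM) were at their highest in medium, above every supernatant sample. The log2 fold change of ctrl against medium was -0.84 for Clec12a (edgeR adjusted p = 0.0141), under the fold threshold, and -1.07 for Clec10a (edgeR adjusted p = 0.132). Clec12a differed as much in 4OHT against medium (log2 fold change -0.83, edgeR adjusted p = 0.0319). Clec4d, with 510 and 545 CPM in medium, and Clec4e, with 30.9 and 39.7 CPM, differed from ctrl by log2 fold changes of 0.17 (edgeR adjusted p = 0.626) and 0.69 (edgeR adjusted p = 0.155). Without the replicate block 1 of the 6 calls against ctrl was left, that of Clec7a. Leaving out 1 medium sample left 2 calls without medium replicate 1 (Clec7a and Clec4a3) and 3 without medium replicate 2 (Clec4a1 also), the calls of Clec4n were lost without ctrl replicates 1 or 2, and Clec5a fell just under the fold threshold without ctrl replicate 3 (log2 fold change 0.995).

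**Figure D4:**
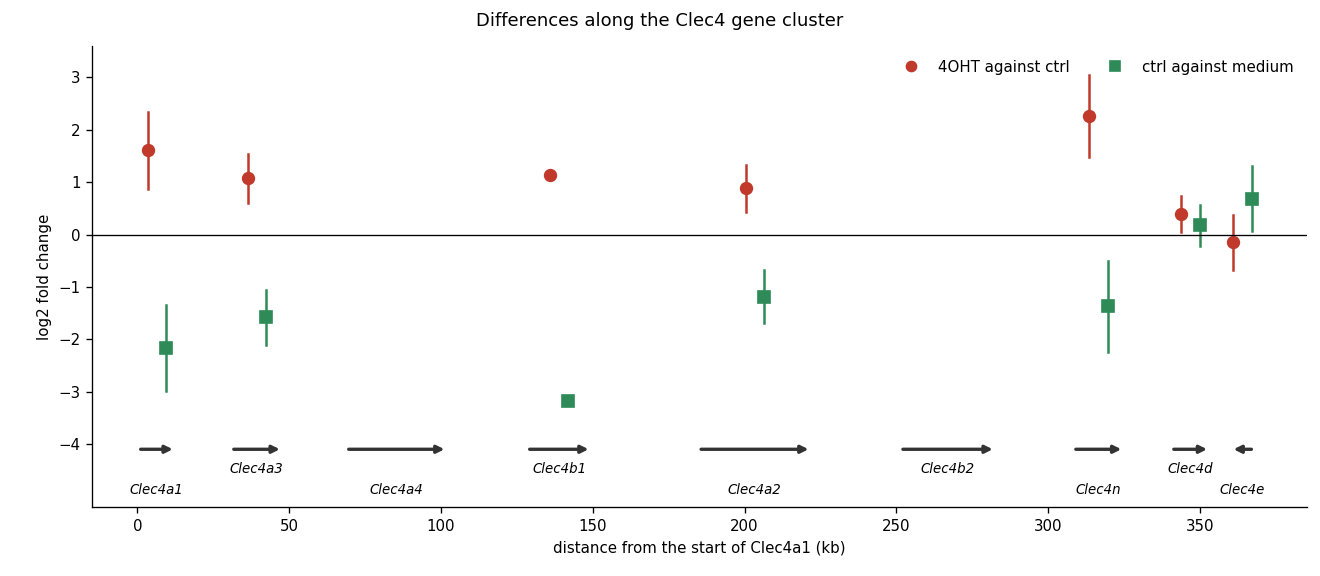
The Clec4 gene cluster drawn to scale as arrows in the direction of transcription (horizontal axis in kb from the start of Clec4a1), with the log2 fold changes of 4OHT against ctrl (circles) and ctrl against medium (squares) above each gene tested. Lines are 95% intervals, which are drawn for the members and not for Clec4b1, and Clec4a4 and Clec4b2 were too low to be tested. Genes from Clec4a1 to Clec4n lie above 0 in the former and below 0 in the latter, and the log2 fold changes of Clec4d and Clec4e lie between -0.14 and 0.69.

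Across the 14 samples the members fell into a few shapes, given here as descriptions since the points share libraries and replicate numbers. The log2 CPM of Clec4a1 and Clec4a3 had a Pearson r of 0.97, and Clec4a2 and Clec4a3 of 0.90. Clec7a, which lies in another cluster, had an r of 0.87 with Clec4a3. Clec5a ran against these, with an r of -0.88 with Clec4a1 and -0.85 with Clec7a. Clec4d had an r of -0.00 with Clec7a and 0.54 with Clec4n. By the same measure over all genes tested, with predicted genes and the 10 members left out, Slc9a9 (r = 0.98), Slc16a6 and Ddhd1 were most like Clec4n, and Filip1l (r = 0.96), Clec4b1 and Nr1h3 most like Clec7a. Eva1b (r = 0.98), Ncf4 and Cnpy3 were most like Clec4a1, Jaml (r = 0.99), Sult1a1 and Ahrr most like Clec4a2, and H2-Aa (r = 0.97), H2-Ab1 and Tmem176a most like Clec4a3. Prim1 (r = 0.95), Rnaseh2b and Nudt4 were most like Clec5a.

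Of 34 other C-type lectin and lectin-like receptor genes, 17 were high enough to be tested. In 4OHT against ctrl 1 was called higher (0.35% of all genes) and 0 lower (98 of the 12851 genes). In ctrl against medium 1 was called higher (4.1% of all genes) and 6 lower (3.69% of all genes). The gene that rose with 4OHT was Clec4b1, a neighbour of Clec4a2 in the cluster, which had 8.31, 7.44 and 25.7 CPM in ctrl, 23.5, 13.4 and 53.1 CPM in 4OHT and 82.9 and 63.1 CPM in medium. Its log2 fold change was 1.14 in 4OHT against ctrl (SE 0.22, edgeR adjusted p = 0.0262) and -3.17 in ctrl against medium (SE 0.24, edgeR adjusted p = 2.89e-05). The former call was lost without the replicate block (edgeR adjusted p = 0.894) and without any of ctrl replicates 1 and 2 and 4OHT replicates 1 and 2. Mrc1, the mannose receptor, was the 1 gene of this list that was higher in ctrl than in medium, with 434 to 827 CPM against 117 and 122 CPM (log2 fold change 2.27, edgeR adjusted p = 0.000692). The remaining genes called lower, Clec2d, Klrk1, Cd69, Cd207 and Pla2r1, had at most 18.3 CPM in any sample. Klrk1 had 6.98 and 3.78 CPM in medium and 0.101 to 0.442 CPM in ctrl. Pla2r1 had 1.65 and 1.45 CPM in medium and 0 to 0.405 CPM in ctrl. No supernatant sample of Klrk1 exceeded 1.05 CPM, so it entered the test through medium, the group where it was high. For Klrk1, and largely for Pla2r1, the filter thus favoured a call of this direction.

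Of 30 genes of the signalling chain below these receptors, all 30 were tested and 0 were called in 4OHT against ctrl (1.11% of all genes). An unadjusted edgeR p was under 0.05 for 5 of the 30 and for 1394 of the 12851 genes. The median log2 fold change of the 30 was 0.15. Fcer1g, which encodes FcRγ, had 668 to 1588 CPM in ctrl and 1271 to 1493 CPM in 4OHT. Syk, the kinase they share, had 96.7 to 107 CPM in ctrl and 138 to 160 CPM in 4OHT, and was not called (log2 fold change 0.58, edgeR adjusted p = 0.211). Replicate 3 of 4OHT+Fer1 (140 CPM) and of Fer1 (145 CPM) and both medium samples (147 and 142 CPM) lay inside the 4OHT range of Syk. Card9 was low in every sample, with at most 3.75 CPM. In ctrl against medium, Hcst (log2 fold change -1.65, edgeR adjusted p = 0.0336), an adaptor of lectin-like receptors, and the kinase Fgr (log2 fold change -1.23, edgeR adjusted p = 0.0483) were lower and the lipid kinase subunit Pik3cg was higher (log2 fold change 1.23, edgeR adjusted p = 0.0177). Hcst and Fgr were not called without the replicate block.

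The total count per sample lay between 7823051 and 11052352, and 3 counts, taken as the least that could be told from none, were 0.272 to 0.381 CPM, far below every value given for the members. All 8 macrophage markers lay above this limit in every group. Their sums, mostly Lyz2, were 19064 to 28026 CPM in ctrl and 28385 to 44045 CPM in 4OHT, without overlap. They were 22603 to 29158 CPM in 4OHT+Fer1, 21761 to 27998 CPM in Fer1 and 27719 to 34443 CPM in medium. In 4OHT against ctrl 0 were called (1.11% of all genes). An unadjusted edgeR p under 0.05 was found for 4 of the 8 and 1394 of the 12851 genes. Csf1r had the largest log2 fold change, 1.03 (edgeR adjusted p = 0.219). The part of this in the receptor levels was not tested. Markers of other cells had lower sums. The sum of 9 fibroblast markers was 16.7 to 120 CPM, with Pdgfra at most 0.442 CPM but the collagen gene Col1a2 at 7.75 to 67.4 CPM, that of 8 dendritic cell markers 4.39 to 24.4 CPM with Flt3 at no more than 1 count in any sample, and that of 10 neutrophil markers 22.7 to 75.8 CPM after supernatant and 102 to 103 CPM in medium, with Ly6g and Elane at 0 in all 14 samples. Of 6 monocyte markers 1 was called higher in 4OHT than in ctrl (0.35% of all genes), Vcan. It had 2.31 to 8.94 CPM in ctrl and 18.1 to 24.7 CPM in 4OHT (log2 fold change 2.32, edgeR adjusted p = 0.0126). The summed level of the 6 was 232 to 355 CPM in ctrl, 63.3 to 423 CPM in 4OHT and 396 to 424 CPM in medium. Vcan was also higher in 4OHT than in 4OHT+Fer1 (log2 fold change 2.42, edgeR adjusted p = 0.0122), where the collagen gene Col1a1 was lower (log2 fold change -1.14, edgeR adjusted p = 0.0456). In ctrl against medium 5 markers of other cells were called lower (3.69% of all genes), of 4 fibroblast, 2 dendritic cell, 4 neutrophil and 6 monocyte markers tested. These were Col1a1 and Col1a2 of the fibroblast list (log2 fold changes -1.17 and -1.22), S100a8 of the neutrophil list (-1.49), Irf4 of the dendritic cell list (-1.75) and Vcan (-1.94), with edgeR adjusted p of 0.00928 to 0.0246. Col3a1, F13a1 and Plac8 had positive log2 fold changes there (0.74, 0.65 and 0.61) and were not called. In 4OHT against medium Col1a1 and Col1a2 were called lower as well (log2 fold changes -1.53 and -1.14, edgeR adjusted p of 0.00865 and 0.0380), as was Fcgr1 of the macrophage list (log2 fold change -1.11, edgeR adjusted p = 0.0145). The part of these cells in the receptor levels was not tested.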

How the data were processed

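RNA of pBMDMs was sequenced from the 3′ end (QuantSeq, 50-base single reads per the study's methods). The authors aligned reads with STAR 2.7.10a, quantified genes with Salmon 1.5.2 and deposited a table of estimated counts, not normalized. The methods name a human genome, the processing notes also list GRCm38, and the identifiers are those of mouse. Whether counting used the strand is not given in the sources used here. A second deposited table holds the authors' fold changes and p-values and 14 columns of CPM, none of which were used.

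Counts were rounded (30109 values were not whole), filtered with filterByExpr (minimum count 10), scaled by TMM (factors 0.910 to 1.06) and fitted in R 4.3.3 with edgeR 4.0.16, whose quasi-likelihood p-values were adjusted after Benjamini and Hochberg over 12851 genes. The plan had spoken of counts. The model held group and replicate number, since the methods give mouse ID as a batch. That the number is the mouse was assumed. The deviations of samples from their group mean had, across genes, a median r of 0.247 in 26 pairs sharing a number (lowest 0.0035) and -0.139 in 52 other pairs. The labels do not say that replicates are separate animals, so p-values measure the spread between these samples. Standard errors were obtained by dividing fold changes by the root of F, CPM used the TMM factors, and log2 CPM a prior count of 2. Intervals and count limits cover the fit and counting error only.

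The 10 genes and all gene lists were chosen with earlier results of these data known. Besides the 10, the text names list genes called in a comparison, up to 8 per list by smallest adjusted p, with Fcer1g, Syk, Card9 and the marker genes added after their values were seen, and for each called member the 3 genes of highest correlation. The scripts were tested on simulated data. Alternatives were DESeq2 1.42.0, no replicate block, only the groups compared, other scaling and filters, no fold threshold and each replicate number left out. Leaving out single libraries was added after the data were seen.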

Additional observations from a re-analysis of the deposited data

How the results depend on the processing

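The members called in 4OHT against ctrl, 4OHT against 4OHT+Fer1, ctrl against medium, 4OHT against medium and the interaction numbered 4, 1, 6, 1 and 0. Without the replicate block they numbered 0, 0, 1, 0 and 0, so the calls rest on pairing the samples by replicate number. With the groups compared alone they numbered 0, 0, 7, 2 and 0, with DESeq2 4, 2, 6, 1 and 1, with no filter 4, 2, 6, 1 and 1, with a minimum count of 30 4, 2, 6, 1 and 0, and with no fold threshold 4, 2, 7, 2 and 0. Leaving out a replicate number or a library gave 0 to 4, 0 to 5, 1 to 6, 0 to 2 and 0 to 1. The cause was not tested, apart from the fewer samples that this leaves. Members called in the other 3 comparisons stayed at 0. RLE and library-size scaling kept every count within 1 of the reported value. Library-size scaling moved the median log2 fold change of all genes in ctrl against medium from -0.01 to 0.11 and lost the call of Clec4n (log2 fold change -1.24, edgeR adjusted p = 0.0658).

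None of the 12 called member results changed sign under any alternative. These were 185 values in all, many of them from the same fits. In 4OHT against ctrl 3 uncalled members did. Clec12a went from 0.01 to -0.0105 without the replicate block, -0.0209 with library-size scaling, -0.0044 with no filter, and -0.20 to 0.23 with a replicate or library left out. Clec10a went from 0.13 to -0.0315 with the groups compared alone and to values between -0.30 and 0.66 with a replicate or library left out, and Clec4e went from -0.14 to values between -0.35 and 0.24 with a replicate or library left out. No direction is given for these 3 genes. The standard errors of the 10 members in 4OHT against ctrl lay between 0.16 and 0.37 in log2, which limits the differences that could pass.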
